A study of Mus musculus with 2 samples.

Results

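Dense clusters of distal open sites are places where many sites at which the nuclease DNase I cuts readily lie close together and away from annotated promoters. They were taken from autosomal peaks of replicate 1 that a replicate 2 peak overlapped and that lay over 1 kb from every GENCODE M21 transcript start. Neighbouring peaks with a gap under 5 kb were joined, and runs of 5 or more peaks were kept. Members were thus chosen by the peak calls of both libraries, and the order given below by the summed peak signal. The rule gave 262 clusters with 1509 peaks, which is 2.81% of the 53668 shared distal autosomal peaks and part of 115699 replicate 1 peaks and 167829 replicate 2 peaks in all. Each cluster is called by the protein-coding gene with the nearest transcript start, which is a label of position only.

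The libraries are DNase-seq of hippocampus from B6CASTF1/J mice, the first-generation hybrid of C57BL/6J and CAST/EiJ, all female and 14 days old, untreated as far as the labels say. There are 2 libraries, replicates 1 and 2 of a single group, and each label names 3 females. Both carry the same donor identifier and different biosample identifiers, so whether they hold separate animals is not known and differences between them may be technical. There was no other condition to compare with. In a bulk tissue, fewer cells of a type and less open DNA per cell cannot be told apart.

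In DNase-seq, nucleosome-free DNA at promoters, enhancers, insulators and other bound sites is cut more often and appears as a peak, and a protein on the DNA leaves a short protected stretch within the peak, a footprint. Enhancers that lie side by side are known from genes that set cell identity. Genes read by RNA polymerase III, above all tRNA genes, also lie in groups. At a tRNA gene the factor TFIIIC holds the A box and the B box inside the gene, and TFIIIB is placed just upstream of the start. GENCODE M21 transcript starts do not include these genes, so a peak at a tRNA gene counts as distal under the rule.

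The strongest replicate 1 peak of each of the 8 leading clusters is shown as an example of the DNA in these clusters, although in replicate 2 another peak was slightly higher at Aurkb, Shf and Dand5. The peaks are printed on the plus strand of the RefSeq GRCm38.p6 genome, the assembly that mm10 names. In the first 3, capitals mark the bases of the RefSeq tRNA gene that lie in the peak, 72 bp of a tryptophan tRNA gene at Aurkb, 72 bp of a histidine tRNA gene at Hfe2 and 54 bp of another histidine tRNA gene at Shf. The tryptophan gene reads along the plus strand and both histidine genes along the minus strand, so these appear here as their reverse complement. The B box letters described below are in the Hfe2 peak, while the Shf peak also holds a cyclic AMP response element and a GC box at footprints of both libraries.
Aurkb cluster (chr11:69041701-69041920): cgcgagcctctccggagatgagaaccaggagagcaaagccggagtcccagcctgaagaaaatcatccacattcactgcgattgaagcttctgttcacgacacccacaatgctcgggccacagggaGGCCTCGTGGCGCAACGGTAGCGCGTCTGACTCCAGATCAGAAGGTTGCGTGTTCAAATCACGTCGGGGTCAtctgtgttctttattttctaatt
Hfe2 cluster (chr3:96500341-96500540): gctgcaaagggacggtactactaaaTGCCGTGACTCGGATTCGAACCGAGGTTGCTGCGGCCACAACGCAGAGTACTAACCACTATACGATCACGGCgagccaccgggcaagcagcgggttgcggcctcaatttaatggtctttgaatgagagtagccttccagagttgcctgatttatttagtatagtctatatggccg
Shf cluster (chr2:122377381-122377600): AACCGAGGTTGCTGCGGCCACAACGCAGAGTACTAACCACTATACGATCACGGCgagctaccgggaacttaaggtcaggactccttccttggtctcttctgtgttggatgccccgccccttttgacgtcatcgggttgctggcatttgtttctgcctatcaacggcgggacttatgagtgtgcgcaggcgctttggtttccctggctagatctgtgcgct

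The other 5 lie at no tRNA gene, and capitals there mark bases inside footprints found in both libraries, between 71 and 109 bp of each peak. The Kdm6b peak lies in an intron of Kdm6b, and the others are intergenic in GENCODE M21. The Kdm6b, Calcoco1 and Dand5 peaks hold the CTCF core letters, CCA, AG and GGC with 2 bases between each pair, and these overlap a shared footprint in each. The Tex44 peak holds TGACGTCA, the cyclic AMP response element, and the Dand5 peak holds GTTGCCATG, letters that RFX factors are known to bind, both at a shared footprint. The 4 peaks at Kdm6b, Calcoco1, Dand5 and Tex44 hold a GC box, GGGCGG, at a shared footprint, while the Actg1 peak holds none of the 20 listed consensus sequences and no B box letters.
Kdm6b cluster (chr11:69411181-69411380): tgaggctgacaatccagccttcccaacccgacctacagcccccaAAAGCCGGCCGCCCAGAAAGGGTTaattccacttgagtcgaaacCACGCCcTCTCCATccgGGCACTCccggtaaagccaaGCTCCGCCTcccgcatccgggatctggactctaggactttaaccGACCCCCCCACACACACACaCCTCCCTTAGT
Actg1 cluster (chr11:120307681-120307860): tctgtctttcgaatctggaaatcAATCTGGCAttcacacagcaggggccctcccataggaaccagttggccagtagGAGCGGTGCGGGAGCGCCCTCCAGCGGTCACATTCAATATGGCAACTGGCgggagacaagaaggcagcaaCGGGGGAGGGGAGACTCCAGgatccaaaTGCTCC
Calcoco1 cluster (chr15:102742661-102742860): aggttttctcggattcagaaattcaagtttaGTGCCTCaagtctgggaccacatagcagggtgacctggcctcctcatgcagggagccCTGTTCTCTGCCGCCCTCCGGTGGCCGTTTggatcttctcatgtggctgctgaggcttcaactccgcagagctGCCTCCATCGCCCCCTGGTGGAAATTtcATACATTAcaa
Dand5 cluster (chr8:84810961-84811160): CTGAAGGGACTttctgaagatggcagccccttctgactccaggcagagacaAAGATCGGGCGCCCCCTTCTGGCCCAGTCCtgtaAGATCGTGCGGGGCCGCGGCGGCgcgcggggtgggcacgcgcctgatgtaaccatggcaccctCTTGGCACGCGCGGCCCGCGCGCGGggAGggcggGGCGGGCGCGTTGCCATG
Tex44 cluster (chr1:86434461-86434700): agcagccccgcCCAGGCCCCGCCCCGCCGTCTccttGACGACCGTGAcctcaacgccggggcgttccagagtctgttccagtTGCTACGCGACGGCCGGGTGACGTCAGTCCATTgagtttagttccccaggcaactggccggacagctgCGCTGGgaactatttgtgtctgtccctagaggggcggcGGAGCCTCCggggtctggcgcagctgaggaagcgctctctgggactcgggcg

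The clusters were short and mostly at the lower limit of the rule. They spanned 1840 to 21172 bp, with a median of 7570 bp, and covered 2.10 Mb in all, of which 365 kb lay in peaks. There were 150 clusters with 5 peaks, 65 with 6, 27 with 7, 10 with 8, 5 with 9, and 2, 1 and 2 clusters with 10, 11 and 12 peaks. Just outside the rule lay 460 runs of 4 peaks. The 150 runs of 5 peaks had a median summed signal of 8.63 in replicate 1 and 5.28 in replicate 2, and the 460 runs of 4 had 5.85 and 3.84. Of 1247 gaps between neighbouring peaks of a cluster, 218 were of 150 bp or less. In several named clusters, among them Kdm6b, Calcoco1, Dand5, Olfr1423, Polg and Acap3, some listed peaks overlapped. Part of the peak numbers thus comes from adjoining or overlapping entries, and each replicate 1 entry adds to the replicate 1 sum.

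The rule used the peaks and the clusters were ranked by the summed signal, so these values are a description and support no test. The authors' scaling of the signal is not stated and the depth is unknown, so sums are ranked within a library only. Sums ranged between 2.01 and 54.4 in replicate 1, with a median of 10.3, and between 1.45 and 28.4 in replicate 2, with a median of 5.97. Ranks were alike in both libraries, with a Spearman rho of 0.870 over the 262 clusters, which share both libraries and are not replicates. The first 50 ranks of both libraries had 42 clusters in common. In 181 of 262 clusters the strongest peak was the same site in both libraries, and it carried a median of 35.5% of the sum in replicate 1 and 34.1% in replicate 2.

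**Figure D1:**
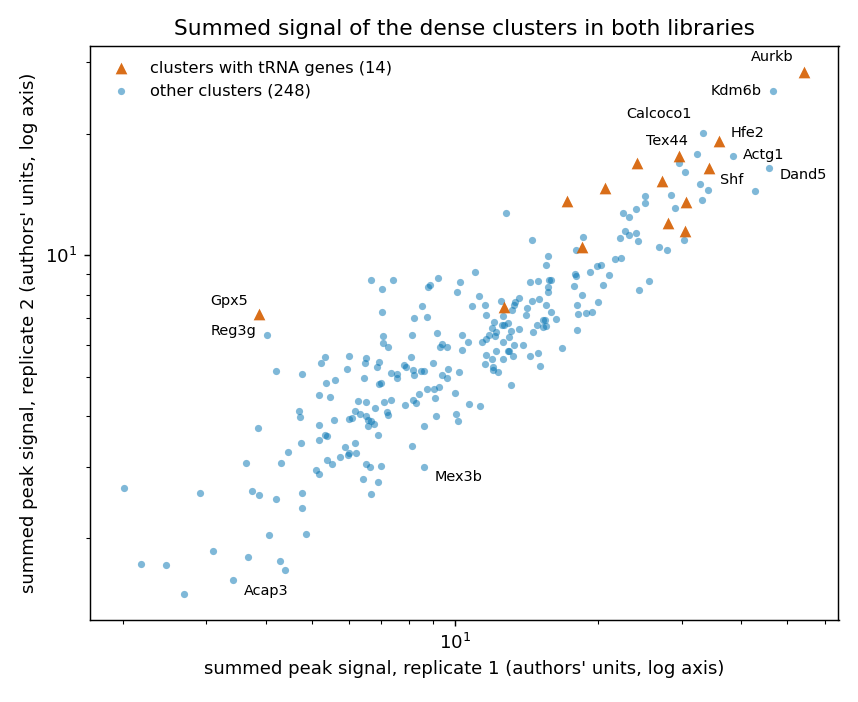
Summed peak signal of each cluster in replicate 1 (horizontal) and replicate 2 (vertical), in the authors' units on log axes, with 1 point per cluster. The 14 clusters with tRNA genes, drawn as triangles, lie mostly at the upper right, and the Gpx5 cluster lies apart from the others of this kind.

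Clusters at tRNA genes led the ranking. The cluster nearest to Aurkb, a mitotic kinase gene, lay at chr11:69035981-69041920, overlapped the end of the neighbouring gene Ctc1, and ranked first in both libraries, with a sum of 54.4 in replicate 1 and 28.4 in replicate 2. Of its 8 peaks 7 lay within 100 bp of a tRNA gene, those for isoleucine, serine, threonine, proline, aspartate, glycine and tryptophan. Its peaks had signals of 4.95, 7.47, 2.52, 3.94, 8.68, 6.75, 4.84 and 15.3 in replicate 1, in order along the chromosome. The same sites had 3.74, 2.92, 2.13, 2.71, 3.07, 5.36, 3.18 and 5.30 in replicate 2. The tryptophan site was the highest in replicate 1 and the aspartate site the highest in replicate 2, by a small margin over the tryptophan site.

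At Hfe2, which encodes hemojuvelin, a regulator of iron balance, the nearest cluster lay at chr3:96497741-96503380 and ranked 6 in replicate 1 and 4 in replicate 2. Its peaks at tRNA genes, for asparagine, lysine, histidine, glycine and glutamate, had signals between 3.18 and 9.90 in replicate 1 and between 2.23 and 5.85 in replicate 2. Its single peak away from tRNA genes was the lowest in both, at 2.33 and 1.57. In the cluster nearest to Shf, an adaptor protein gene, at chr2:122375561-122381245, the 3 peaks at histidine tRNA genes had 9.05, 18.9 and 4.30 in replicate 1 and 6.41, 6.29 and 1.84 in replicate 2. Its 2 other peaks had 1.18 and 0.889 in replicate 1 and 0.531 and 1.41 in replicate 2, all below the tRNA sites of the same library.

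**Figure D2:**
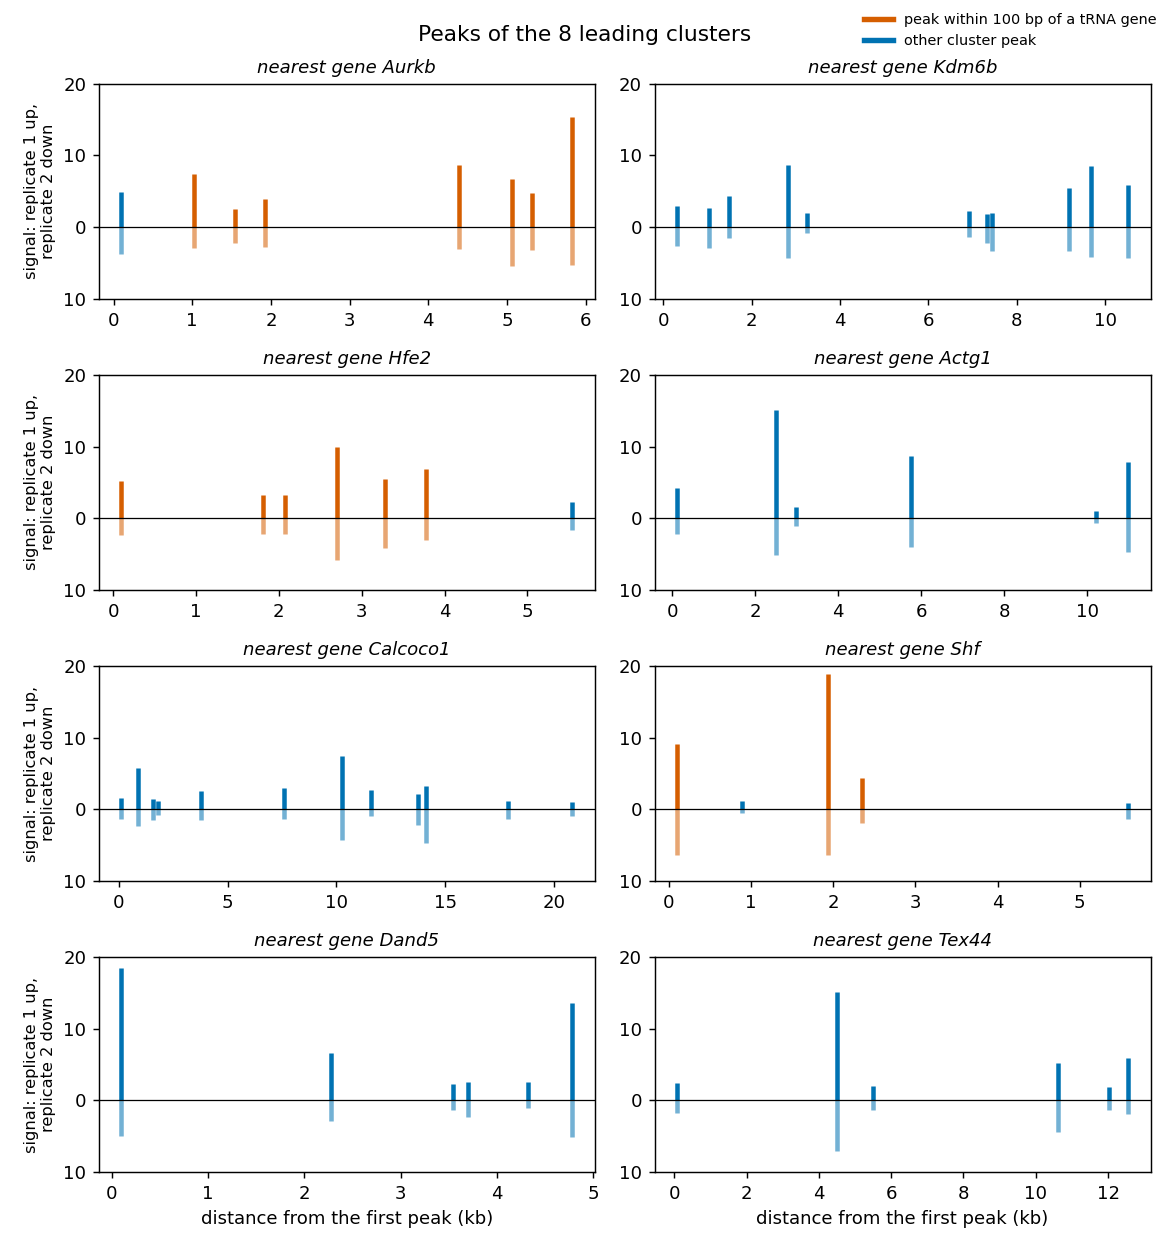
Signal of every peak of the 8 leading clusters against the distance from the start of the first peak in kb, with replicate 1 drawn upwards and replicate 2 downwards in the authors' units. In the Aurkb, Hfe2 and Shf panels the high peaks lie at tRNA genes, whereas the other panels have none.

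In all, 14 clusters had RefSeq tRNA genes at or between their peaks, and they held 58 such genes, 51 of them within 100 bp of a cluster peak. Of all cluster peaks 3.38% lay within 100 bp of a tRNA gene, against 0.234% of other shared distal peaks. Ordered by the worse of the 2 ranks, the 14 clusters made up 6 of the first 20 clusters and 12 of the first 50. Their median sum was 27.7 in replicate 1 and 14.2 in replicate 2, against 9.86 and 5.81 in the 248 other clusters. The 51 cluster peaks at tRNA genes had a median signal of 4.97 in replicate 1 and 2.93 in replicate 2, against 1.34 and 0.911 in the other 1458 cluster peaks. The signal of the 122 shared distal peaks at tRNA genes outside clusters was not set beside these. Whether tRNA sites in clusters differ from other tRNA sites in signal was thus not tested. The tRNA genes at cluster peaks carried 18 of the 20 amino acids of the autosomal set. They held 10 of 25 genes for leucine, against 51 of all 386 autosomal tRNA genes. No gene for cysteine, the most numerous set with 57 genes, or for glutamine lay at a cluster peak. Most cysteine genes had no peak in either library, and most lay in a single array at chr6:48133937-48363603. Some cysteine genes elsewhere had a peak in both libraries. Whether reads match the array at several places was not examined. All tRNA genes were looked up after the leading clusters had been seen.

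The other tRNA clusters included 8 tRNA genes in a cluster whose nearest coding start is that of the olfactory receptor gene Olfr1423, at chr19:12002341-12012560, with sums of 29.6 in replicate 1 and 17.6 in replicate 2. Next to Dhx37, an RNA helicase gene, a cluster with 5 tRNA genes had sums of 27.4 and 15.3. The clusters nearest to Rnase12 and Ang, ribonuclease family genes on chromosome 14, lay 22540 bp apart and held 3 tRNA genes each, with 30.6 and 13.6 at Rnase12 and 20.7 and 14.7 at Ang. A cluster next to Gpx5 at chr13:21274961-21279860 departed from these, with 2 tRNA genes, a sum of 3.88 and rank 250 in replicate 1, and a sum of 7.15 and rank 94 in replicate 2. Its ratio of replicate 1 to replicate 2, 0.542, was the lowest of all clusters, whose median was 1.83. RefSeq lists 386 autosomal tRNA genes, of which 231 had a peak within 100 bp in both libraries, 31 in a single library and 124 in neither.

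Footprints, which the rule did not use but which come from the same reads, were placed alike along the tRNA genes of both libraries. Of the 51 tRNA genes at cluster peaks, 44 had a footprint within the 60 bp upstream of the gene in replicate 1 and 48 in replicate 2, and 49 had a footprint in the first 72 bp of the gene in each library. Upstream, coverage was highest 22 bp before the first base in replicate 1, where 76.5% of the genes had the base in a footprint, and 24 bp before it in replicate 2, at 80.4%. Inside the gene it was highest 60 bp after the first base, at 88.2% and 86.3%. Between these it fell off within the gene, to 17.6% and 15.7% at 10 bp after the first base, 0% and 1.96% at 15 bp, and 0% in both libraries at 20 bp.

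Protected bases thus lay just before the gene and late in it, with bases that few footprints covered between them. Further upstream, coverage was 3.92% and 5.88% at 70 bp before the first base and 37.3% in both libraries at 100 bp. The 180 tRNA genes with a peak in both libraries but not at a cluster peak had 78.3% and 83.3% at 60 bp and 1.11% and 1.11% at 20 bp. At 22 to 26 bp upstream these had a highest value of 75.0% in replicate 1 and 73.9% in replicate 2. The 124 tRNA genes with no peak had at most 2.42% at any base. These were chosen for having no peak, and footprints come from the same reads, so the low value follows largely from that choice. The letters GTTCGANNC, a form of the B box, were found in 36 of 51 cluster peaks at tRNA genes, 70.6%, against 0.617% of the other cluster peaks and 0.429% of shared distal peaks outside clusters. This form was searched after the tRNA genes had been seen. The B box is part of a tRNA gene, so its high share in peaks chosen for lying at tRNA genes follows largely from that choice. Shared distal peaks at tRNA genes outside clusters were not counted apart.

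**Figure D3:**
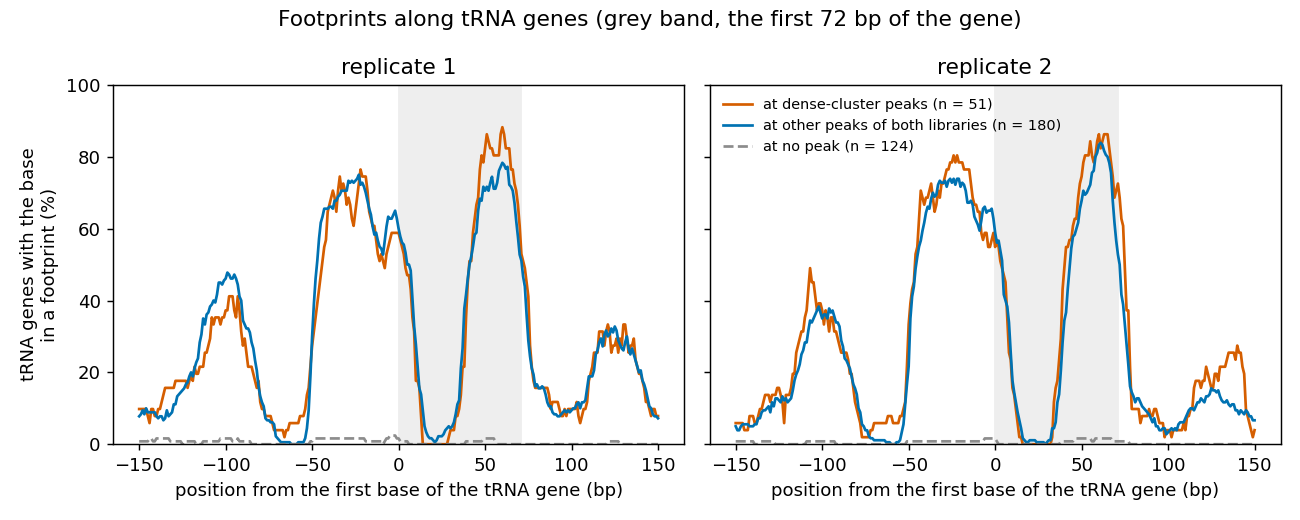
Percentage of tRNA genes whose base lies in a footprint, from 150 bp before to 150 bp after the first base of the gene, in replicate 1 (left) and replicate 2 (right). The tRNA genes at dense-cluster peaks (orange, n = 51) have high coverage just upstream of the start and near 60 bp, as do those at other peaks (blue, n = 180). Those at no peak (grey, n = 124) stay near 0, which follows largely from their choice.

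Among the leading clusters without tRNA genes, that at Kdm6b ranked second in both libraries, with sums of 46.6 in replicate 1 and 25.5 in replicate 2. Kdm6b encodes a demethylase of lysine 27 of histone H3. The cluster held 11 peaks at chr11:69408461-69419180, which had signals between 1.82 and 8.73 in replicate 1 and between 0.773 and 4.32 in replicate 2. All 11 lay within 1 kb of a RefSeq transcript start, so the cluster is distal only by the GENCODE annotation. Over the 262 clusters, 62 had such a peak, among them 7 of the leading 20. At Calcoco1 these were 5 of 12 peaks and at Tex44 3 of 6. In all, 9.08% of cluster peaks against 4.19% of other shared distal peaks lay within 1 kb of a RefSeq start.

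The cluster nearest to Actg1, a cytoplasmic actin gene, at chr11:120305261-120316380, had 6 peaks with signals of 4.26, 15.0, 1.63, 8.61, 1.06 and 7.80 in replicate 1 and of 2.19, 5.12, 1.04, 4.00, 0.646 and 4.63 in replicate 2. It lay 35395 bp from a cluster of 8 peaks inside Bahcc1, a chromatin regulator gene, whose sums were 29.0 and 13.1. The Actg1 cluster overlapped the VISTA enhancer mm1481, an enhancer element tested in transgenic mouse embryos. Next to Irf2bp2, a transcriptional corepressor gene, at chr8:126665501-126668960, a cluster had sums of 30.4 and 16.1 and overlapped the VISTA enhancer mm1295. In all, 6 clusters overlapped a curated RefSeq enhancer, and 0.729% of cluster peaks did against 0.671% of other shared distal peaks.

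Of the 5 clusters with the most peaks, 4 ranked within the first 45 in both libraries. Some listed peaks overlapped at Kdm6b, Calcoco1, Polg and Acap3, so these hold fewer separate sites than peaks. The Kdm6b cluster, with 11, ranked 2 in both. The cluster nearest to Calcoco1, which encodes an autophagy receptor, had 12 peaks at chr15:102732521-102753414, sums of 33.3 and 20.1, and ranks of 9 and 3. A second cluster nearest to Irf2bp2, at chr8:126582621-126596420, also had 12 peaks, with sums of 22.4 and 9.84 and ranks of 37 and 44. The cluster nearest to Polg, the polymerase of mitochondrial DNA, had 10 peaks, sums of 21.7 and 9.82 and ranks of 39 and 45. Next to Acap3, at chr4:155906421-155909828, a cluster had 10 peaks within 3408 bp but sums of only 3.42 and 1.57, which ranked 256 and 261.

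The Polg cluster, at chr7:79493981-79507720, contained the hairpin of Mir9-3, a copy of the neural microRNA miR-9. Its highest peak had 9.89 in replicate 1 and 2.84 in replicate 2, and the other 9 had between 0.501 and 3.85 in replicate 1 and between 0.329 and 1.86 in replicate 2. Close to Mir9-1 on chromosome 3 lay a pair of clusters nearest to Rhbg, 15195 and 23628 bp from the hairpin, with sums of 9.04 and 14.4 in replicate 1 and 4.67 and 5.65 in replicate 2. Mir9-2 had no cluster nearby, and the nearest was 604859 bp away. Of the 262 clusters, 28 had a RefSeq microRNA hairpin within 50 kb. The share of other shared distal peaks with such a hairpin was not counted, so this is not read as a trait of clusters.

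The cluster nearest to Ezh2, the gene of a methyltransferase of histone H3, had 9 peaks, sums of 42.8 and 14.5 and ranks of 4 and 17. It lay 51442 bp from the coding start, with 7 peaks within 1 kb of a RefSeq start. Its peaks at chr6:47650761-47650980 and chr6:47651121-47651320 had 21.3 and 17.8 in replicate 1 and 6.74 and 4.48 in replicate 2. The other peaks had at most 0.843 in replicate 1 and 1.03 in replicate 2, and 1 peak of the cluster had near copies elsewhere in the genome. The clusters nearest to Tex44 and Ptma, the gene of prothymosin alpha, lay 57240 bp apart on chromosome 1, with sums of 32.4 and 17.8 at Tex44 and 34.2 and 14.5 at Ptma.

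Several pairs of clusters lay along the same locus. There were 12 genes nearest to 2 clusters and 238 nearest to 1. The pair at Lrrc74a on chromosome 12 lay 23640 bp apart, with sums of 25.2 and 13.5 in the stronger cluster and 17.8 and 8.42 in the weaker. The clusters nearest to Nfix and Dand5 on chromosome 8 lay 12680 bp apart, with sums of 22.9 and 11.5 at Nfix and 45.9 and 16.4 at Dand5. Nfix encodes a nuclear factor I protein, and its cluster lay wholly inside the gene. Near Tmem161b on chromosome 13 a cluster of 7 peaks had sums of 25.1 and 14.0, and a second one 216320 bp away had 4.19 and 5.19.

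Sites repeated elsewhere in the genome formed some of the leading clusters. The clusters nearest to Sfi1, a centrosome protein gene, at chr11:3123241-3132300, and to Klrb1c, a natural killer cell receptor gene, at chr6:128760081-128767060, had near copies of 4 of their 5 peaks, with at least 90% identity over at least 80% of the peak. Their sums were 32.7 and 15.0 at Sfi1 and 28.5 and 14.1 at Klrb1c. The handling of reads that match several places is not stated with the files, so signal at these clusters may belong to another copy. Of the 262 clusters, 6 had near copies of most of their peaks and 251 of none. A repeated tRNA gene of about 72 bp covers less than 80% of a peak of 220 bp, the median at tRNA genes in clusters. It would thus not count as a near copy by itself. How reads at the tRNA clusters match other tRNA genes was not examined, so signal and footprints there may also belong to another copy.

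By position, 77 clusters, 29.4% (95% Wilson interval 24.2% to 35.2%), lay wholly inside a protein-coding gene and 123 touched none. There were 114 within 10 kb of the nearest coding start and 25 over 100 kb away. The 25 distant clusters had a median sum of 5.995 in replicate 1 and 4.97 in replicate 2, and the 114 nearby clusters had 12.1 and 6.27. The median ratio of replicate 1 to replicate 2 was 1.43 in the distant and 1.88 in the nearby clusters. A transcript start lay between the outer peaks of 46 clusters, and 41 held a promoter peak there. Chromosome 11 had 27 clusters, 2.21 per 10 Mb, and the other autosomes had between 0.713 and 1.47 per 10 Mb. These counts of clusters were not set beside the same counts for other regions, so none is read as high or low. The clusters share both libraries, and the interval covers counting error only.

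Some clusters lay along exons. In the clusters at Pcdh17, a protocadherin gene, Tchh, which encodes trichohyalin, and Islr2, a neuronal membrane protein gene, all 6, 6 and 5 peaks overlapped exons. Over all clusters, 12.8% of peaks overlapped an exon, against 7.97% of other shared distal peaks, and 719 of the 1509 cluster peaks against 28687 of the 52159 others overlapped any GENCODE gene. The median distance from a coding start was 17551 bp for cluster peaks and 37034 bp for the others. These are counts over sites that share 2 libraries, and no test was made of the differences.

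Cluster peaks were wider, richer in G and C and stronger than other shared distal peaks. Their median width was 220 bp against 189 bp, their median GC 55.5% against 52.8%, and their median CpG observed over expected 0.322 against 0.258. Cluster peaks at tRNA genes went the other way in GC, with 48.8%. Cluster peaks had a median signal of 1.38 in replicate 1 and 0.946 in replicate 2, and the others had 0.881 and 0.727. Footprints per kb of peak were 12.2 in replicate 1 and 9.91 in replicate 2 in clusters, against 11.8 and 10.8. The ratio of clusters to others was thus 1.04 in replicate 1 and 0.920 in replicate 2, but both lay below 1 with the shorter peak lists, at 0.923 and 0.878, and above 1 with peaks within 150 bp merged, at 1.10 and 1.01, so no direction is read from it.

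The rule places cluster peaks on both sides of the bases between them and ends a cluster where no further member peak follows, so the next values are a description of the clusters only. Outside every peak of either library, 10.7% of the bases between cluster peaks in replicate 1 and 10.6% in replicate 2 passed the authors' false discovery rate of 0.05, against 3.25% and 2.62% of the bases in the 5 kb on either side. A further 359 replicate 2 peaks lay between the outer peaks of clusters without overlapping a cluster peak.

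Besides the B box, 20 listed short consensus sequences were searched on both strands. Among these 20 the GC box, GGGCGG, which SP and KLF factors bind, had the largest excess over the other peaks in percentage points. It was found in 20.1% of cluster peaks against 9.06% of other shared distal peaks, and in 16.5% against 8.63% of 200-bp windows centred on them, which removes the difference in width. The nuclear receptor letters AGGTCA was found in 9.87% of cluster windows against 7.54%. The E-box CAGATG, which NeuroD factors bind, was found in 19.4% of cluster windows against 27.7%, and the nuclear factor I letters TTGGCA in 16.6% against 22.6%. The CTCF core letters were found in 10.7% against 12.3%. The cluster peaks were also GC-richer than the other peaks, and the part of GC content in these shares was not tested.

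Counted by cluster, 160 of 262 had a GC box in at least 1 peak and 108 the CTCF core letters, with up to 7 peaks with a GC box at Kdm6b and 4 with the CTCF core letters at Plcg2. CAGATG was present in 197 clusters, although per peak it was found in 22.7% of cluster peaks against 27.1% of other shared distal peaks. A cluster holds several peaks, and sets of other peaks were not counted in the same way. These counts by cluster are thus not read as high or low. The immediate early gene Egr3, itself a zinc finger factor, had a cluster in which 3 peaks held GCGTGGGCG, the letters that EGR factors bind, although only 3 clusters had these letters at all. A match is a description of the letters and not of a bound site.

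**Figure D4:**
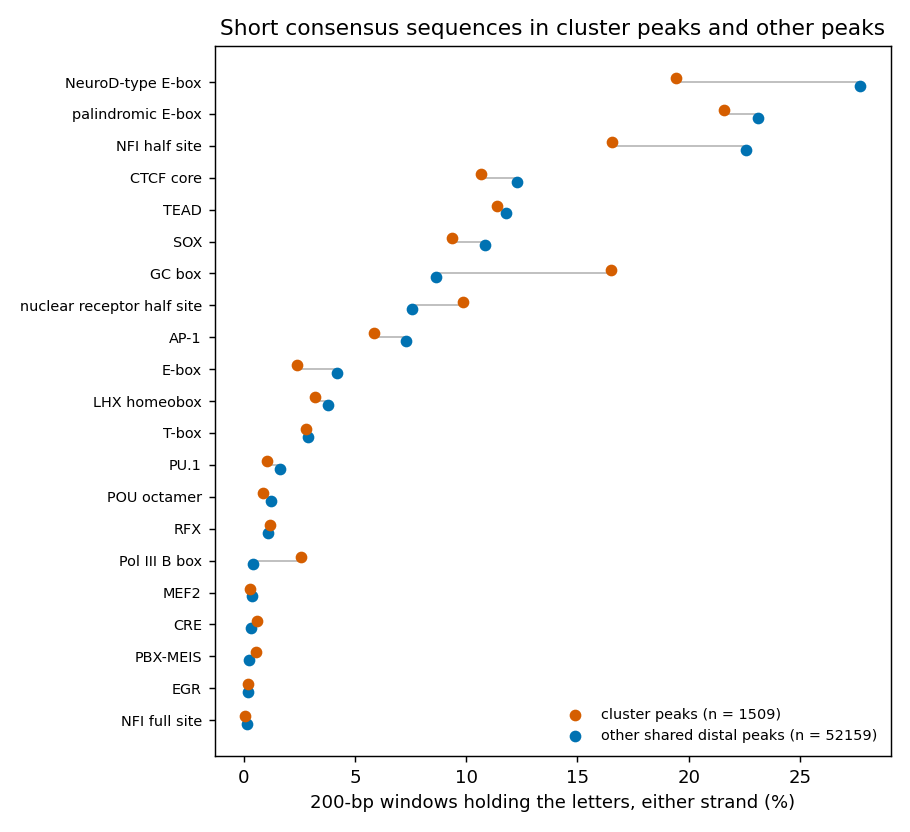
Percentage of 200-bp windows that hold each short consensus sequence on either strand, in cluster peaks (orange, n = 1509) and other shared distal peaks (blue, n = 52159). The GC box and the B box of RNA polymerase III genes lie further right in clusters, and the NeuroD-type E-box and the nuclear factor I letters further right in the other peaks. The B box is part of tRNA genes, at which 3.38% of cluster peaks and 0.234% of the others lie.

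Markers of several cell types of the hippocampus were the nearest gene of a cluster, mostly 1 gene of a list. Of the 20807 autosomal protein-coding genes, 250 were nearest to at least 1 cluster, 1.2%. A gene is said here to have a cluster when it is the nearest gene, at any distance. Of 20 excitatory neuron genes only Zbtb20, a zinc finger repressor needed for hippocampal identity, had a cluster, of 18 interneuron genes only the homeobox gene Dlx2, and of 18 pan-neuronal genes only the splicing factor gene Rbfox3. Of 18 astrocyte genes only the glutamate transporter gene Slc1a3 had one, and none of 16 microglia and 18 vessel genes had. The Dlx2 cluster lay 78640 bp and the Slc1a3 cluster 76775 bp from the coding start, outside any protein-coding gene. The Zbtb20 and Rbfox3 clusters lay inside those genes. Promoter peaks in both libraries, which 62.9% of autosomal protein-coding genes had, lay at 19 of 20 excitatory, 10 of 18 interneuron, 18 of 18 astrocyte, 13 of 17 oligodendrocyte, 10 of 16 microglia and 10 of 18 vessel genes. Of the lists for other tissues, 1 of 17 liver, 2 of 18 striated muscle, 5 of 17 blood and 3 of 18 epithelium genes had such a promoter peak.

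Genes of transcription factors and of early response were among those with clusters. Of 17 progenitor genes, 3 had a cluster, among them the transcription factor genes Sox2 and Pax6, and of 17 oligodendrocyte genes 2 had, Sox8 and Olig2. The Sox2 cluster lay 204742 bp and the Pax6 cluster 52180 bp from the coding start. The Sox8 cluster lay 1654 bp and the stronger of the 2 Olig2 clusters 4587 bp from the coding start. Of 20 immediate early genes, which neurons switch on with activity, 3 had a cluster, namely Fos, Fosb and Egr3. Their clusters lay 12111, 1560 and 0 bp from the coding start. The Fos cluster had sums of 18.5 and 7.98, the Fosb cluster 18.1 and 7.15, and the Egr3 cluster 13.3 and 5.65, all above the median cluster except Egr3 in replicate 2. Of 35 genes of transcription, chromatin and signalling regulators 7 had a cluster, among them Bahcc1, Nfix, Rara, Nfib and Tcf4. This list, like all the gene lists, was drawn up with earlier results of these data known, so none of these counts is independent evidence.

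Sums at list genes covered a wide part of the ranking. The Rara cluster, at the gene of retinoic acid receptor alpha, had 20.3 and 9.46, the Rbfox3 cluster 13.3 and 7.53, and the Slc1a3 cluster 10.2 and 5.15. The Pax6 cluster had 4.39 and 1.67, and the 2 clusters nearest to Olig2 had 4.29 and 1.75 in one and 2.47 and 1.71 in the other, all with ranks between 243 and 260. Of 17 liver genes 1 had a cluster, Pck1, which encodes an enzyme of gluconeogenesis, with 7.82 and 5.37. None of 18 striated muscle, 17 blood and 18 epithelium genes had one.

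**Figure D5:**
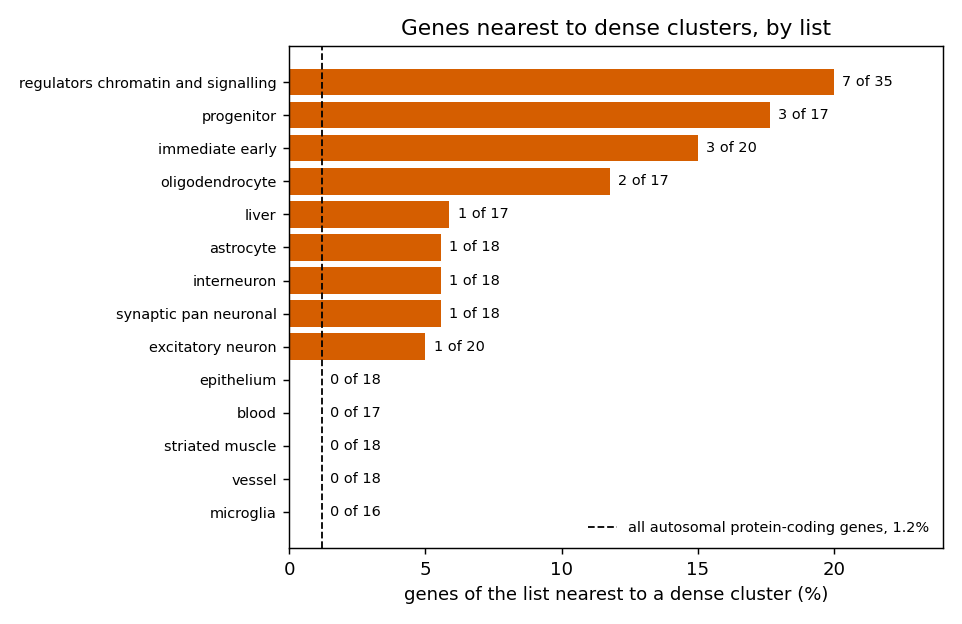
Percentage of the genes of each list that are nearest to a dense cluster, with the counts beside the bars and the percentage of all autosomal protein-coding genes as a dashed line. Regulators, progenitor genes and immediate early genes stand highest, and 5 lists have no such gene. The lists were chosen with earlier results of these data known.

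The libraries disagreed most on a few clusters. In replicate 1 the Pard6b cluster ranked 74, the cluster at Gadd45g itself 95 and the Mex3b cluster 156, and in replicate 2 they ranked lower, Pard6b at 156, Gadd45g at 181 and Mex3b at 239. The clusters nearest to Gpx5, Ccnh and Reg3g ranked higher in replicate 2, at 94, 57 and 119, than in replicate 1, at 250, 196 and 249. The Ccnh cluster lay 428179 bp and the Reg3g cluster 75449 bp from the nearest coding start, while the Gadd45g and Mex3b clusters held their coding start between the outer peaks. These are single values per library and no test was possible.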

How the data were processed

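DNase-seq was done on 2 libraries of mouse hippocampus, replicates 1 and 2 of a single group. Per the file listings, peaks, footprints and runs of bases with a high cut rate were derived by the authors from the library's own filtered alignment to mm10. No source used here names the peak caller, the aligner or the handling of reads that match several places. The deposited peak lists hold a signal value whose scaling is not stated, so depth is unknown and signal was compared within a library only. The deposited footprints carry a constant score, so their positions alone were used. The deposited cut-rate runs carry a false discovery rate q-value below 0.05.

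Overlaps needed 1 bp. GENCODE M21 gave transcript starts and genes, and RefSeq on GRCm38.p6 gave tRNA and microRNA genes, curated enhancers, other starts and sequence. Clusters were named by a rule: the leading 20 by the worse of the 2 ranks, the 5 with the most peaks, the 5 genes nearest to the most clusters, the 3 clusters whose ranks differ most in each direction, and up to 3 genes of each list. A few list genes are not reported here. The members and the lists were chosen with earlier results of these data known. The tRNA genes, their footprints, the B box, near copies, RefSeq starts, microRNA genes and curated enhancers were examined after cluster values were seen, as were the exon clusters, neighbouring clusters and motif clusters named in the text. No test was run, since there is 1 group of 2 libraries. Intervals on shares are 95% Wilson intervals and cover counting error only. Scripts used Python 3.11.15, NumPy 2.4.6, SciPy 1.17.1, pandas 2.3.3, Matplotlib 3.10.9 and minimap2 2.31-r1302 and were tested on simulated data. Alternatives changed the joining gap, the peaks needed, the peak list, the overlap, the start distance, the anchor library and the annotation.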

Additional observations from a re-analysis of the deposited data

How the results depend on the processing

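The number of clusters, 262, and their share of shared distal peaks, 2.81%, depended on the rule. A gap under 2.5 kb gave 114 clusters, 1.19% of peaks, 109 nearest genes and 7 clusters with tRNA genes. A gap under 10 kb gave 669, 7.46%, 633 and 24. A minimum of 8 peaks gave 20, 0.335%, 20 and 2, with 15.0% of clusters inside a coding gene, a rho of 0.958 and 6 of the leading 20 clusters found again. The shorter peak lists gave 57, 1.13%, 56 and 6, with 21.1% inside a coding gene, a GC difference of 3.55 percentage points against 2.72 and 13 of the leading 20 found again. A stricter overlap, at least 0.5 of the replicate 1 peak, gave 165 clusters, 1.93% and 160 genes. The share was 2.15% beyond 2.5 kb from starts. With replicate 2 as anchor it was 3.07%, and the GC difference was 3.53.

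Merging peaks within 150 bp gave 168 clusters, 1.79% and 164 genes. The alternatives with RefSeq starts, without peaks at tRNA genes and without clusters with near copies were chosen after seeing the data. With RefSeq starts also used the share was 2.37%. Leaving out peaks at tRNA genes gave 2.67%, and 1 cluster still had such a gene. Requiring a single library gave 1134 to 1663 clusters, 8.10% to 11.9% of peaks, 39.6% to 39.9% inside a coding gene, 1006 to 1448 genes, a GC difference of 1.78 to 2.70, a footprint ratio of 0.797 to 0.973, 11 to 14 of the leading 20 and 21 to 25 tRNA clusters, and no rank correlation. Of 125 values over all clusters, 79 moved by less than their error or kept within 1.5 times, and 46 moved. The footprint ratio, a mean of both libraries of 0.979, lay on either side of 1 across alternatives, with 0.901 for the shorter lists and 1.06 for merged peaks, and has no direction. Of 371 values of single clusters 193 did and 178 moved. The cause was not tested. No paired analysis was possible because there is 1 group. Depth is unknown, so no limit from depth can be given.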
